A study of Mus musculus with 15 samples.

Results

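The genes described here mark B cells and the plasma cells that B cells become. They were taken as the rows of the deposited expression table whose identifiers equal the symbols Cd79a, Cd79b, Pax5, Fcrla, Jchain, Mzb1 and Pou2af1. Of these 7 symbols 6 matched, out of 17271 genes in the table, and Mzb1 was not analysed here. The table held 15 bulk tumour samples from 4 mammary tumour models, all of genotype p53-NULL and strain Balbc, with the tissue given as mouse mammary tumor. The models were 2151R with 4 samples, T11 with 1, 2225L with 2 and 2208L with 8. The titles split 2208L into 4 samples with PBS, 3 with "3day nt" and 1 with ROSEN in the library name; 2225L had 1 CP and 1 ROSEN library. The 2151R titles carry 53ca for replicate 2, NT2 and NT for replicates 3 and 4, and another tag for replicate 1. No age, host, agent dose or number of animals is given in the sources used here, so no group is read as a drug response. Nothing states that replicates came from separate animals, and p-values therefore measure the spread between these samples. The CP libraries of the models and subsets fell in separate ranges of library numbers, so library range and group cannot be told apart. T11 and the ROSEN sample of 2208L stand alone and have no test.

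A B cell recognises antigen through membrane immunoglobulin, which signals only when it sits with the Cd79a and Cd79b chains. Pax5 is the transcription factor that holds a cell in the B lineage and is switched off when a plasma cell forms. Plasma cells secrete immunoglobulin, and Jchain links the units of secreted IgM and IgA. Pou2af1 is a coactivator that joins octamer-binding Pou2f factors on immunoglobulin and other promoters, and Fcrla is an Fc receptor-like protein kept inside B cells. Pou2af1 is also known in some epithelia, such as that of the airways. In bulk tumour RNA, fewer cells of a type and less RNA per cell cannot be told apart, nor can a gene made by B cells be told from the same gene made by tumour cells.

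The 6 members lie on separate chromosomes in mm10: Cd79a at chr7:24897497-24901858, Cd79b at chr11:106311341-106314562, Pax5 at chr4:44524748-44710694, Fcrla at chr1:170917594-170932216, Jchain at chr5:88519809-88527897 and Pou2af1 at chr9:51213690-51240079. All 6 are annotated as protein-coding. Fcrla overlaps the pseudogene Gm2962, which has a row of its own, so reads of this pair may be split between them. Promoter entries of RefSeq (GRCm38.p6, the same build) existed for 5 members: Cd79a, Pax5, Fcrla, Jchain and Pou2af1. The start used for Fcrla lies inside the annotated extent of that gene. The 3 windows that held a searched motif are printed below, because Cd79a and Pou2af1 were higher in 2225L and Jchain in 2151R. Each is the 250 bases before the annotated start, 5′ to 3′ on the gene's strand, with capitals for the motif letters found.
Cd79a, chr7:24897247-24897496, plus strand: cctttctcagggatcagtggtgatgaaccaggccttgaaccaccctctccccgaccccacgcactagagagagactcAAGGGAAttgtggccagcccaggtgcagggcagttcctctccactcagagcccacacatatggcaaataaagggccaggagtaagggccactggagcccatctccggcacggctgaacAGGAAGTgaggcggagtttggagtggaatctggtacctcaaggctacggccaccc
Jchain, chr5:88527898-88528147, minus strand: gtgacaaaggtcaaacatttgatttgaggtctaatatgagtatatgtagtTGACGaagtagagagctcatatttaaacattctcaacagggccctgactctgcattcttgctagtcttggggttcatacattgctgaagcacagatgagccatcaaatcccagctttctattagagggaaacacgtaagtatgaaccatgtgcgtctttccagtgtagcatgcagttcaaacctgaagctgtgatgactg
Pou2af1, chr9:51213440-51213689, plus strand: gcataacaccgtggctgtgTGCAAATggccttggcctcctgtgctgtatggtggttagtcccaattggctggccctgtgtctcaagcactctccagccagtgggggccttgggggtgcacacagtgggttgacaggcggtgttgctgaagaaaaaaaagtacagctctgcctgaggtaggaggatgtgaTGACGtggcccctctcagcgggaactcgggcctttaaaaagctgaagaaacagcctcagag

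Motifs were searched on both strands as fixed letters, and their share was counted in all 32851 promoter windows of the same length. The Pou2af1 window held TGCAAAT, the core of the octamer to which its own Pou2f partners bind, at bases 231 to 225 before the start; 3.56% of all windows held it. The full octamer ATGCAAAT, which contains that core, was in 1.6% of windows and in none of the 5. TGACG, the core of the cAMP response element, stood at bases 61 to 57 before Pou2af1 and 200 to 196 before Jchain, and in 17.8% of all windows. The Cd79a window held AAGGGAA, part of an Ebf1 site, at bases 173 to 167 (6.4% of windows). It also held the Ets letters AGGAAGT at bases 55 to 49 (7.69% of windows). The Ebf1 palindrome CCCNNGGG (11.8% of windows) and TATAAA (12.4%) were in none of the 5, and the Pax5 and Fcrla windows held none of the 7 motifs. These matches describe letters only.

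Values below are the deposited log2 values, which scatter around 0; what they were centred on is not given in the sources used here, and levels of different genes are not compared. A difference of 1 is a 2-fold change. Differences between models were tested with limma on all 15 samples with a mean per model, and called at a Benjamini-Hochberg adjusted p under 0.05 over all 17271 genes. Many genes differed between these models, and each count of members is set beside that background.

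**Figure D1:**
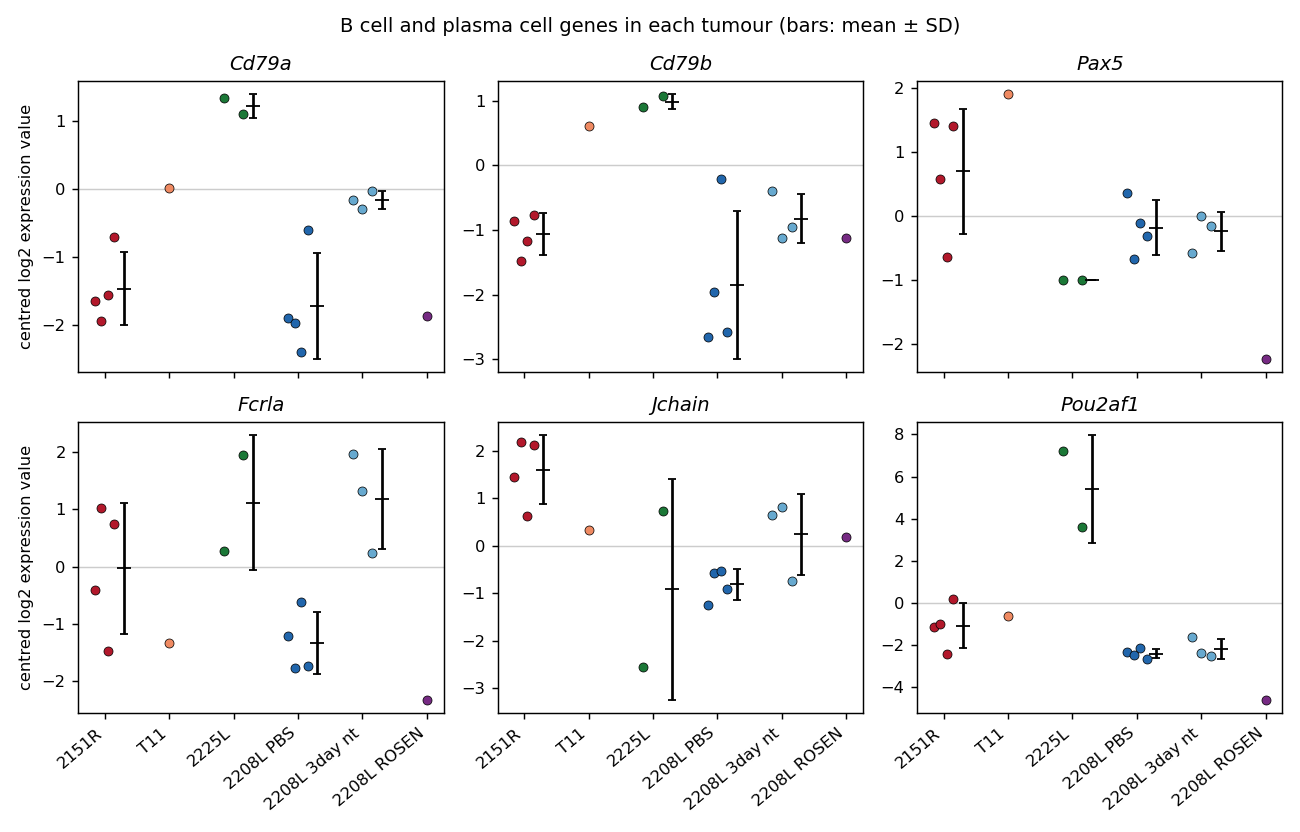
Centred log2 expression value (vertical axis) of each B cell and plasma cell gene in every tumour (points), by model and by subset of 2208L. Bars give the mean ± SD of groups of 2 or more; for Pou2af1 both 2225L points (7.21 and 3.59) sit above all other samples.

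The receptor chains Cd79a and Cd79b and the coactivator Pou2af1 were higher in 2225L than in 2208L and in 2151R, while Jchain had its highest mean in 2151R. Against 2208L, 3 of the 6 members were higher in 2225L and none was lower, where 32.9% of all genes were called, 15.6% as higher and 17.3% as lower. The 3 called members also had no overlap between the groups, as had 31.7% of all genes. Against 2151R, 3 members were higher in 2225L and 2 lower, where 48.6% of all genes were called (22.8% higher, 25.8% lower); the groups did not overlap for 4 of the 5, nor for 62.4% of all genes. Between 2151R and 2208L only Jchain was called, 1 of 6 where 48.8% of all genes were called, 26.1% as higher and 22.7% as lower; the groups overlapped for all 6 members, while for 38.8% of all genes they did not. The median difference of the members was 2.0 for 2225L minus 2208L, 1.60 for 2225L minus 2151R and 0.82 for 2151R minus 2208L; over all genes it was -0.044, -0.10 and 0.10. These comparisons share samples and are not independent of each other.

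**Figure D2:**
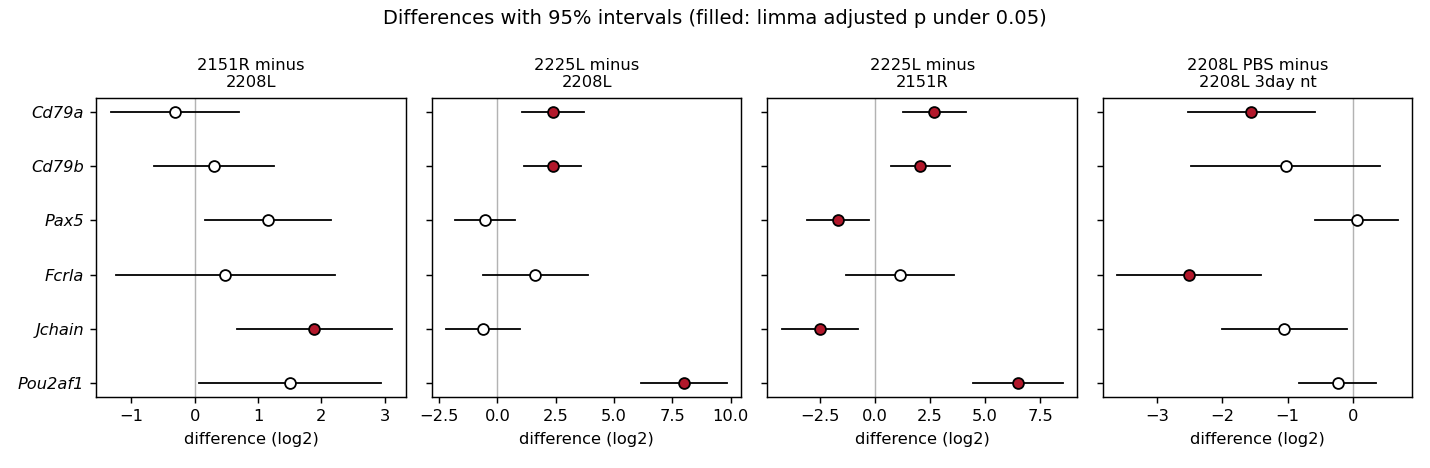
Difference in log2 value (horizontal axis, a separate scale in each panel) with its 95% interval for the 6 members in the 3 model comparisons and in PBS against 3day nt within 2208L. Filled points passed the limma test at an adjusted p under 0.05; Pou2af1 in 2225L, at 8.0 over 2208L, lies farthest from 0.

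Cd79a, the Igα chain of the B cell receptor, read 1.34 in the CP sample of 2225L and 1.10 in the ROSEN sample. The 2151R samples read -1.65, -1.95, -1.57 and -0.71. The PBS samples of 2208L read -1.91, -1.98, -2.40 and -0.61, the 3day nt samples -0.16, -0.30 and -0.039, and the ROSEN sample -1.87. Both 2225L samples were thus above every other sample, and the 3day nt samples stood above the rest of 2208L and all of 2151R. The difference was 2.38 ± 0.61 (SE) over 2208L, a fold of 5.20 (95% interval of the log2 difference 1.06 to 3.69, limma adjusted p = 0.00918). Over 2151R it was 2.69 ± 0.67 (limma adjusted p = 0.00487). 2151R minus 2208L was -0.31 ± 0.47 (limma adjusted p = 0.608), with an interval from -1.33 to 0.71 that holds both directions. Against the 3day nt samples alone Cd79a was lower in 2151R, at -1.30 (limma adjusted p = 0.0152), and in that fit it was the only member called. Without the CP sample of 2225L, the difference of Cd79a over 2208L was 2.26 with a limma adjusted p of 0.0631. With CP samples alone it was 2.40 and 0.0584.

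Cd79b, the Igβ chain, read 0.91 and 1.07 in 2225L. The 2151R samples read -0.86, -1.48, -1.17 and -0.76. The PBS samples read -2.66, -1.95, -0.21 and -2.58, the 3day nt samples -0.39, -1.12 and -0.95, and the ROSEN sample of 2208L -1.13. The 2225L samples were again the highest 2 of all 15, and PBS replicate 4 stood well above the other PBS samples. Cd79b was 2.37 ± 0.56 (SE) higher in 2225L than in 2208L, a fold of 5.15 (limma adjusted p = 0.00615). It was 2.06 ± 0.62 higher than in 2151R (limma adjusted p = 0.0148). Without the ROSEN sample of 2225L the Cd79b difference was 2.29 over 2208L (limma adjusted p = 0.0504) and 1.98 over 2151R (0.081); without the CP sample of 2225L that over 2151R was 2.14 (0.0513). Cd79a and Cd79b had a Pearson r of 0.65 over the 15 samples, and of -0.38 over 13 samples once the mean of each group was taken out. The samples share models and library ranges, so these values are descriptions.

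Pou2af1 had the widest differences of the 6. It read 7.21 in the CP sample of 2225L and 3.59 in the ROSEN sample. The 2151R samples read -1.16, -0.99, -2.42 and 0.20. The PBS samples read -2.34, -2.47, -2.15 and -2.68, the 3day nt samples -1.63, -2.37 and -2.52, and the ROSEN sample of 2208L -4.60. Even the lower 2225L sample was above every sample of the other models. The difference was 8.0 ± 0.86 (SE) over 2208L, a fold of 255 (interval 6.14 to 9.85, limma adjusted p = 1.84e-05). It was 6.49 ± 0.94 over 2151R, a fold of 90.1 (limma adjusted p = 9.5e-05). Depth is unknown, so the reads behind the low values of the other models cannot be given. 2151R minus 2208L was 1.5 ± 0.67 (limma adjusted p = 0.0786), and 1.94 with an adjusted p of 0.0419 when 2151R replicate 3 was left out.

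Most measured genes around Pou2af1 on chromosome 9 were not called. Among the 10 measured genes on each side of Pou2af1, the median difference of 2225L minus 2208L was 0.091. Of these genes 4 were called higher and 1 lower, where 15.6% of all genes were called higher and 17.3% lower. The gene on one side, Colca2, was 6.48 ± 0.62 (SE) higher (limma adjusted p = 6.83e-06), and the predicted gene Gm32742 on the other was 3.66 higher (limma adjusted p = 0.00163). The other 2 called higher, 1110032A03Rik and Poglut3, differed by 0.71 and 0.64.

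**Figure D3:**
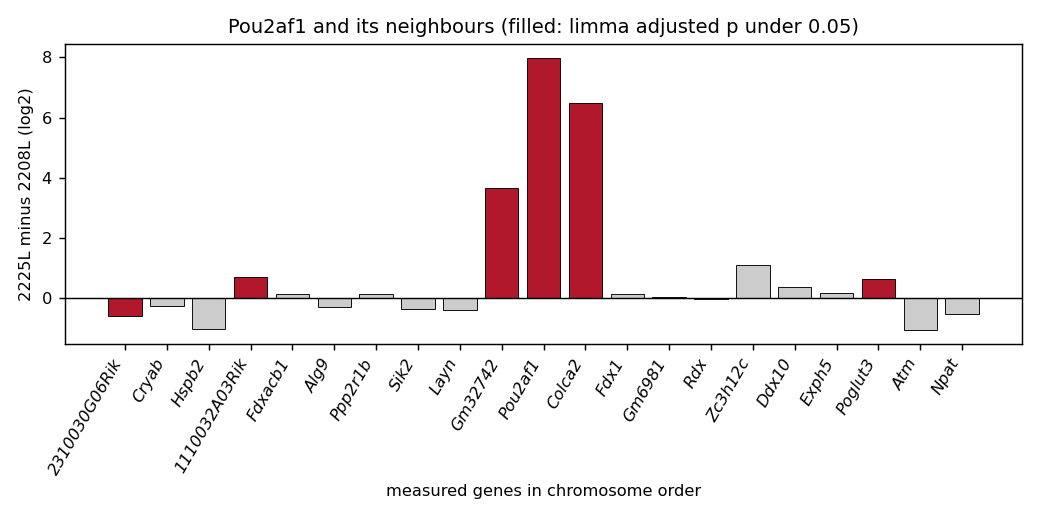
Difference in log2 value of 2225L minus 2208L (vertical axis) for Pou2af1 and the 10 measured genes on each side, in chromosome order (horizontal axis). Dark bars passed the limma test at an adjusted p under 0.05; Gm32742 (3.66), Pou2af1 (8.0) and Colca2 (6.48) stand above the rest.

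The Pou2f factors and Colca2 were chosen for description after the values were seen. Pou2f3, an octamer factor of tuft cells and keratinocytes, read 5.42 and 6.55 in 2225L and between -1.23 and 1.0 in 2208L. It was 6.19 ± 0.52 (SE) higher in 2225L (limma adjusted p = 2.29e-06); 1 of the 8 samples of 2208L shared its exact value with other samples. Colca2, a further Pou2f coactivator, read 5.17 and 3.46 in 2225L and between -3.33 and -1.27 in 2208L. Pou2f2, the octamer factor of B cells, was instead lower in 2225L, at -1.77 ± 0.36 (limma adjusted p = 0.00238), and Pou2f1, the broadly expressed one, differed by -0.52 (0.217). Against 2151R the differences were 6.0 for Pou2f3, 6.19 for Colca2, -1.67 for Pou2f2 and -1.27 for Pou2f1, all called. Over the 15 samples the genes most like Pou2af1 by Pearson r were Edaradd (0.96), Psapl1 (0.96) and Tns4 (0.96). Within groups these were 0.74, 0.81 and 0.74 over 13 samples. Pou2af1 had an SD of 2.55 in 2225L, against 1.07 in 2151R, 0.22 in PBS and 0.48 in 3day nt. The 2 samples of 2225L thus weigh heavily in these within-group values.

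Pax5 followed another order, with T11 highest and 2225L lowest by mean. It read 1.46, 0.57, -0.63 and 1.40 in 2151R. Both 2225L samples held the same value to the last digit, -0.99, and what such a shared value stands for is not given in the sources used here. The PBS samples read 0.35, -0.68, -0.10 and -0.31, the 3day nt samples -0.58, 0.00 and -0.15, and the ROSEN sample of 2208L -2.22. 2151R and 2208L overlapped, since 2151R replicate 3 lay among the 2208L samples. 2151R minus 2208L was 1.16 ± 0.46 (SE) (limma adjusted p = 0.0521), and 1.60 with an adjusted p of 0.0108 without that replicate. 2225L minus 2151R was -1.69 ± 0.65 (limma adjusted p = 0.0461), which fell out of the call in 10 of 17 alternatives. 2225L minus 2208L was -0.53 ± 0.60 (limma adjusted p = 0.529). Pax5 was thus not called higher in 2225L, unlike the receptor chains and Pou2af1. The genes most like Pax5 by Pearson r were Scai (0.93), Nav1 (0.93) and Plekhg3 (0.92), with 0.91, 0.92 and 0.76 within groups.

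Jchain was the only member called between 2151R and 2208L. It read 1.45, 2.19, 0.63 and 2.13 in 2151R. The PBS samples read -1.24, -0.57, -0.53 and -0.90, the 3day nt samples 0.64, 0.82 and -0.75, and the ROSEN sample of 2208L 0.18. The groups overlapped only through 2151R replicate 3, which was below 2 of the 3day nt samples. The difference was 1.89 ± 0.57 (SE), a fold of 3.71 (interval 0.67 to 3.12, limma adjusted p = 0.0139). Against the 3day nt samples alone the difference for Jchain was 1.36 with a limma adjusted p of 0.115.

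The 2 samples of 2225L stood far apart for Jchain, at -2.56 in the CP and 0.73 in the ROSEN sample. 2225L minus 2151R was -2.52 ± 0.80 (SE) (limma adjusted p = 0.0197), and -0.87 with an adjusted p of 0.375 when the CP sample of 2225L was left out. This Jchain result therefore rested on 1 sample. 2225L minus 2208L was -0.62 ± 0.73 (limma adjusted p = 0.55). Without the ROSEN sample of 2225L, that difference of Jchain was -2.27 (limma adjusted p = 0.0387), and without the CP sample it was 1.02, so its sign followed the sample kept.

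Of the 7 immunoglobulin genes measured, 4 were higher in 2151R than in 2208L and none lower, with a median difference of 2.34 against 0.10 over all genes. Igkc, the kappa light chain constant gene, read 2.79, 2.62, 1.65 and 4.28 in 2151R. In 2208L it ran from -2.40 to 0.61. All 2151R samples were thus above all of 2208L, by 3.54 ± 0.85 (SE) (limma adjusted p = 0.0037). Ighg2b, an IgG heavy chain gene, was 3.80 ± 1.03 higher (limma adjusted p = 0.00811) and Ighd, the IgD heavy chain gene, 1.38 ± 0.50 (0.0342). Ighg2c was 5.67 ± 0.80 higher (limma adjusted p = 6.47e-05); 6 of the 8 samples of 2208L held a shared value of 0, and the IgG2 heavy chain genes are near-identical, so the split between them is uncertain.

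The plasma cell and B cell lists held calls in both directions. Between 2151R and 2208L, 2 of 11 plasma cell genes were higher in 2151R and 5 were lower, with a median of -0.10. Prdm1, the plasma cell regulator, was 1.55 higher (limma adjusted p = 0.00272) and Txndc5 0.37 higher (0.0319). Xbp1, the secretory regulator that epithelia also use, was lower at -2.01 (7.97e-07), as was Derl3, a factor of protein export from the endoplasmic reticulum, at -3.42 (5.2e-06). Of 8 B cell identity genes, Bank1 (3.70), Fcrl1 (2.03) and Cd37 (1.19) were higher and Cd72 (-1.02) lower. In B cell receptor signalling, 5 of 13 genes were higher and 3 lower, led by Syk at 1.54 and Cd81 at -1.30.

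Other cell type lists moved between 2151R and 2208L as well. Of 8 macrophage genes 6 were higher and none lower (median 1.09), and of 5 neutrophil genes 3 were lower and none higher. Of 7 epithelial genes 6 were lower and 1 higher (median -6.27). Of 4 adipocyte genes Fabp4 was called, at 1.71 (limma adjusted p = 0.0484), and all 4 differences were positive (median 4.11); the list mean ran from 1.87 to 5.31 in 2151R and from -3.57 to 2.85 in 2208L. Ccl21a, a chemokine of lymph node stroma and lymphatic vessels and the only measured gene of its list, was 3.55 higher (0.0485), with values of 0.14 to 4.76 in 2151R and -2.89 to 2.57 in 2208L. Leaving out 1 sample at a time, Fabp4 lost its call without 2151R replicates 2 or 3 or 2208L replicates 1, 2, 3, 5 or 7. Ccl21a lost it without 2151R replicates 1, 3 or 4 or 2208L replicates 1, 2, 3, 4, 5 or 7. The leukocyte gene Ptprc was 0.77 higher (limma adjusted p = 0.0167) and 1 of 7 T cell genes, Cd28, was called (2.78). The skeletal muscle list had a mean of 6.69 in 2151R replicate 3 and between -3.37 and -2.98 in the other 2151R samples. That replicate also held the lowest Jchain, Pax5, Fcrla and Pou2af1 of its model; the part of these lists in the members' differences was not tested.

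**Figure D4:**
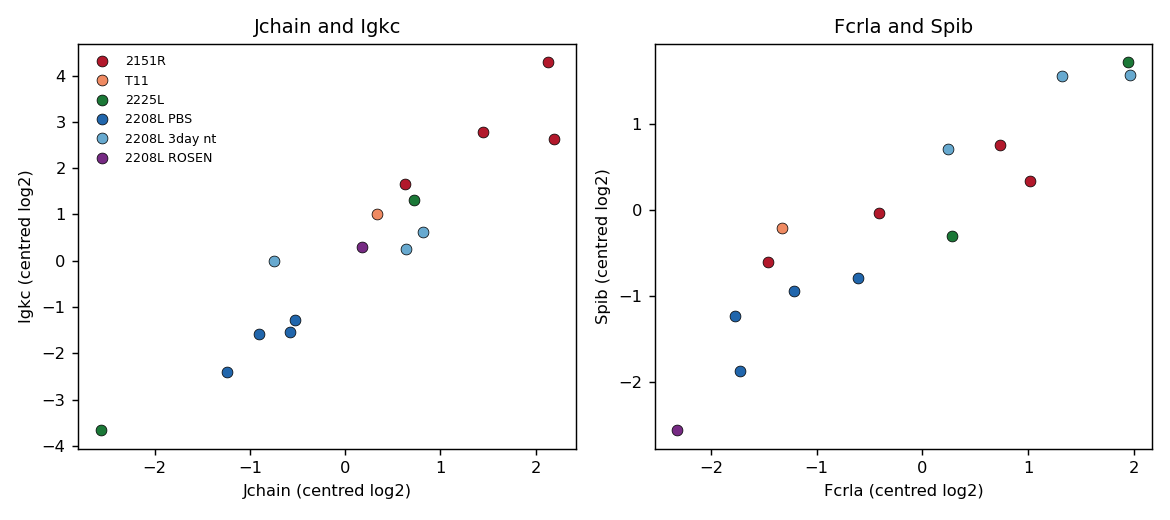
Centred log2 values of Jchain and Igkc (left) and of Fcrla and Spib (right), one point per tumour (n = 15), coloured by model and subset of 2208L. Pearson r is 0.95 and 0.93; the CP sample of 2225L is lowest for Jchain and Igkc alike.

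With predicted genes left out, the gene most like Jchain was an immunoglobulin gene. Its closest genes by Pearson r over the 15 samples were Igkc (0.95), Fam76a (0.90) and Slc35f6 (0.89). Within groups Igkc had 0.89 over 13 samples. Jchain had an SD of 2.32 in 2225L, against 0.73 in 2151R, 0.33 in PBS and 0.86 in 3day nt. The 2 samples of 2225L thus weigh heavily in that within-group value. In T11 Igkc read 1.01, and in 2225L it read -3.66 and 1.32, the same order as Jchain in those samples.

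Few genes of the other B cell and plasma cell lists were called higher in 2225L beside Cd79a, Cd79b and Pou2af1. Against 2208L, 1 of 8 B cell identity genes was called, Bank1, at 1.77 (limma adjusted p = 0.00138); the median of the list was -0.59. None of 13 B cell receptor signalling genes was higher and 5 were lower: Btk (-1.18), Plcg2 (-1.65), Prkcb (-1.89), Syk (-1.13) and Vav1 (-1.13). Of 11 plasma cell genes, Derl3 was higher at 2.21 and 6 were lower, among them Xbp1 at -1.87 and Tent5c at -1.79. Of 7 immunoglobulin genes only Igha, the IgA heavy chain gene, was called, at -2.45 (limma adjusted p = 0.007). Of 9 genes for B cell attraction and survival, the BAFF receptor Tnfrsf13c was higher at 2.50 (0.00912), its ligand Tnfsf13b (BAFF) was lower at -2.30 (0.000279), and a second receptor, Tnfrsf13b, was lower at -1.5 (0.0232). Of the germinal centre list, Bcl6 and S1pr2 were lower at -1.42 and -1.05.

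Many of these values rested on the CP sample of 2225L, whose immunoglobulin list mean was -1.68 against 1.43 in the ROSEN sample. Ighg2c, Eaf2 and Cd81, not called with both samples, were at -0.19, 0.14 and 0.19 over 2208L without the ROSEN sample of 2225L. They were at 4.44, 2.13 and 1.17 without the CP sample. Without it Prkcb was at -0.46 (limma adjusted p = 0.572), Btk at -0.36 (0.548), Syk at -0.64 (0.254) and Tnfrsf13b at -0.57 (0.414). Likewise Tnfrsf13c was at 1.39 (0.182), Derl3 at 1.61 (0.0636), Igha at -1.49 (0.139), Bcl6 at -1.26 (0.0659) and S1pr2 at -0.48 (0.0912). Bank1, Plcg2, Xbp1, Tnfsf13b and Lck stayed called with either sample of 2225L left out.

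Leukocyte genes were lower in 2225L. All 5 leukocyte genes were called lower than in 2208L (median -1.77), Ptprc by -2.13 ± 0.31 (SE) (limma adjusted p = 0.000209). The mean of the leukocyte list was -2.54 and -1.09 in 2225L and ran from -0.72 to 0.53 in 2208L. Macrophage genes (5 of 8) and neutrophil genes (4 of 5) were lower too, with none higher. The size of these differences depended on the CP sample of 2225L. Without that sample Ptprc was at -1.53, Cd53 at -1.36, Cd52 at -1.05 and Coro1a at -0.18. The macrophage genes Msr1, Adgre1 and C1qa were at -1.24, -0.48 and -0.26, and the neutrophil genes Cxcr2 and S100a9 at -4.68 and -3.54. Among T cell genes, Lck alone was called, higher at 3.05 (limma adjusted p = 0.000244), while Cd3e differed by 0.78 (0.454). The T cell list mean was -1.37 in the CP and 1.04 in the ROSEN sample of 2225L, and ran from -1.83 to 1.03 in 2208L. The samples with the highest Cd79a, Cd79b and Pou2af1 were thus those with the lowest mean of the leukocyte list, but not of the T cell list. Whether tumour cells made these transcripts was not tested.

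**Figure D5:**
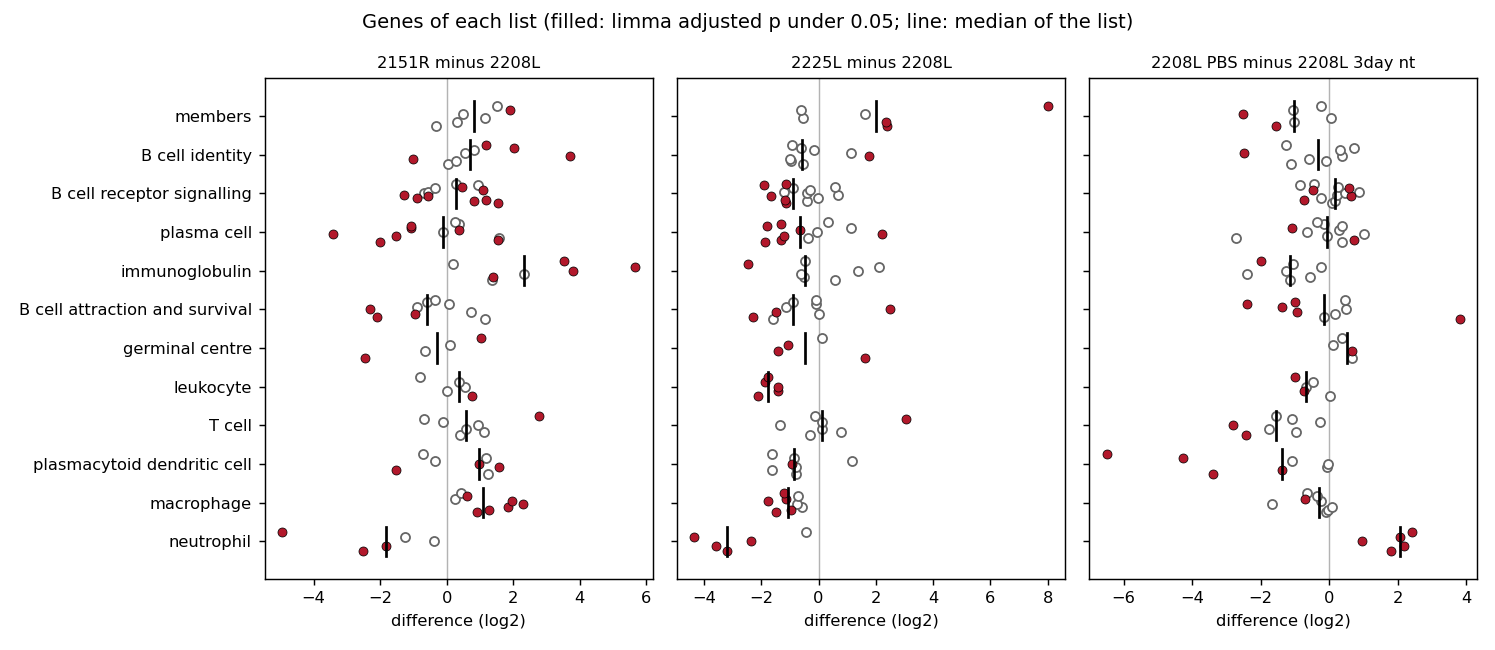
Difference in log2 value (horizontal axis) of each gene of each list (rows) in 2151R minus 2208L, 2225L minus 2208L and PBS minus 3day nt within 2208L. Filled points passed the limma test at an adjusted p under 0.05 and vertical lines mark the median of a list; in 2225L the members lie to the right (median 2.0) and the leukocyte genes to the left (median -1.77).

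Against 2151R, 2225L had lower B cell identity, immunoglobulin and leukocyte genes. None of 8 B cell identity genes was higher and 4 were lower: Bank1 (-1.94), Fcrl1 (-2.66), Cd37 (-2.11) and Cd22 (-1.25). None of 7 immunoglobulin genes was higher and 4 were lower, with Igkc at -4.01 (limma adjusted p = 0.0144). Without the CP sample of 2225L, Igkc was at -1.51 (0.297), and without the ROSEN sample at -6.5 (0.000795). Cd37 was at -1.78 (0.0955) without the CP sample. Tnfrsf13c was 4.80 higher (limma adjusted p = 9.73e-05) and Derl3 5.64 higher (1.71e-06). Of 9 genes for B cell attraction and survival, 2 were called higher and 1 lower, and of 11 plasma cell genes 2 higher and 3 lower. Of 13 B cell receptor signalling genes, 2 were called higher and 7 lower. Of 5 leukocyte genes 4 were lower, and all 7 epithelial genes were higher (median 6.53).

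Fcrla was called in no comparison of models. It read -0.41, 1.02, -1.46 and 0.74 in 2151R and 0.28 and 1.94 in 2225L. The PBS samples read -1.22, -1.77, -0.61 and -1.72, the 3day nt samples 1.96, 1.32 and 0.24, and the ROSEN sample of 2208L -2.32. The spread within 2208L was wider than the distance between the models. 2225L minus 2208L was 1.63 ± 1.03 (SE) (limma adjusted p = 0.252), with 2.44 against the PBS samples alone (0.0173) and -0.064 against the 3day nt samples alone.

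Within 2208L, Fcrla and Cd79a were lower in the PBS than in the 3day nt samples. Of the 6 members these 2 were called and none was higher, where 34% of all genes were called, 17.4% as higher and 16.5% as lower. Neither gene had overlapping groups, as was so for 44.8% of all genes. The median difference of the members was -1.04, against -0.047 over all genes. This comparison was fitted with limma on these 7 samples alone. The meaning of "3day nt" is not spelled out in the labels, and the 2 subsets lay in different ranges of library numbers.

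Fcrla fell by 2.51 ± 0.46 (SE) from 3day nt to PBS, a fold of 5.68 (interval -3.61 to -1.40, limma adjusted p = 0.00985). Cd79a differed by -1.56 ± 0.41, a fold of 2.95 (limma adjusted p = 0.028). Jchain differed by -1.05 ± 0.40 (limma adjusted p = 0.0852) and Cd79b by -1.03 ± 0.61 (0.222). For Cd79b, PBS replicate 4 at -0.21 stood above all 3day nt samples, and without it the difference was -1.58 (limma adjusted p = 0.0174). For Jchain, 3day nt replicate 8 at -0.75 lay among the PBS samples, and without it the difference was -1.54 (0.0256). Pax5 differed by 0.058 ± 0.27 (0.879) and Pou2af1 by -0.24 ± 0.25 (0.475), with intervals of -0.58 to 0.69 and -0.82 to 0.35.

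Spib, a transcription factor of B cells and of plasmacytoid dendritic cells, moved with Fcrla. It read -0.94, -1.24, -0.79 and -1.87 in PBS and 1.57, 1.56 and 0.71 in 3day nt. The groups did not overlap, and Spib differed by -2.48 ± 0.33 (SE) (limma adjusted p = 0.00468), the only call among 8 B cell identity genes. Igkc read -2.40, -1.53, -1.29 and -1.57 in PBS and 0.26, 0.61 and 0.00 in 3day nt. It was the only immunoglobulin gene of 7 called, at -1.99 ± 0.29 (0.00575), though all 7 had negative differences. Some genes of the other lists were higher in PBS. Prdm1 of the plasma cell list was higher by 0.71 (limma adjusted p = 0.0124) and Bcl6 of the germinal centre list by 0.66 (0.0379). Plcg2 (0.64) and Malt1 (0.58) of the B cell receptor signalling list were higher too. Which cells made these transcripts was not tested. Btk (-0.74) and Bcl10 (-0.48) of the signalling list and Eaf2 (-1.09) of the plasma cell list were lower. The medians were -0.34 for B cell identity, 0.16 for signalling and -0.074 for plasma cell genes. Over the 15 samples the genes most like Fcrla by Pearson r were Spib (0.93), Il4i1 (0.90) and Fmod (0.89), with 0.86, 0.71 and 0.67 within groups. Fcrla and Jchain had an r of 0.36 over all samples and 0.80 within groups.

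Markers of other cells differed between the subsets too, in both directions. Of 7 plasmacytoid dendritic cell genes 4 were lower in PBS and none higher: Siglech (-3.39), Klk1 (-4.25), Bst2 (-1.38) and Cox6a2 (-6.49), the last also a gene of striated muscle. The mean of that list ran from -1.53 to 0.0064 in PBS and from 1.21 to 2.51 in 3day nt. Of 7 T cell genes Cd2 (-2.81) and Cd3d (-2.43) were lower and none higher. The leukocyte gene Ptprc differed by 0.026 (limma adjusted p = 0.935), while Cd52 (-1.01) and Coro1a (-0.73) of that list were lower. All 5 neutrophil genes were higher in PBS (median 2.06). Of the genes for B cell attraction and survival, Cxcl13, the chemokine that draws B cells, was higher in PBS at 3.81 with overlapping groups (0.0477), and Ccr7 (-2.40), Ltb (-1.37), Cd40 (-1.0) and Tnfrsf13b (-0.93) were lower. The part of these cell types in the members' differences was not tested.

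The skeletal muscle list had a mean of 10.5 in 3day nt replicate 6, 9.97 in replicate 8 and 1.88 in replicate 7. Without replicates 6 and 8 the differences were -2.65 for Fcrla (limma adjusted p = 0.108) and -1.42 for Cd79a (0.332), with 1 sample left in 3day nt. Spib was then at -2.77 (0.0854) and Igkc at -2.31 (0.113). The differences were thus near those with all samples, while the calls were lost. Cd79a also missed the threshold without any 1 of PBS replicates 2, 3 and 4, at -1.5, -1.47 and -1.33 (limma adjusted p = 0.0684, 0.0693 and 0.0529). The same held without 3day nt replicate 6 (-1.56, 0.0829) or 8 (-1.49, 0.0958), and for quantile-normalized values (-2.03, 0.0536).

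T11 is described by its single values. Cd79a read 0.0098, above all samples of 2151R and 2208L and below both of 2225L. Cd79b read 0.61, in the same place. Pax5 read 1.90, above every other sample, and Jchain 0.34, below all of 2151R and within the range of 2208L. Fcrla read -1.33 and Pou2af1 -0.62, both within the range of 2151R. Among B cell identity genes, Bank1 (3.03) and Ebf1 (2.08) were above the highest sample of every other model, while Igkc at 1.01 was below all of 2151R. The leukocyte list mean in T11 was 0.56, against -0.034 to 0.27 in 2151R.

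The ROSEN sample of 2208L held the lowest value of all 15 samples for Pax5 (-2.22), Fcrla (-2.32) and Pou2af1 (-4.60). Its Jchain (0.18) and Igkc (0.31) lay above all PBS samples, and its Ighg2b read 4.12, above the other 7 samples of 2208L. Cd79a and Cd79b of this sample lay within the PBS range.

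Neighbouring genes were checked for the other members too. In 2225L minus 2208L, 15.6% of all genes were called higher and 17.3% lower. Around Fcrla the 20 neighbours had a median of 0.96 in that comparison, with 10 called higher and 3 lower. Around Cd79a the median was 0.32 (7 higher, 2 lower), around Cd79b -0.12 (4 higher, 2 lower), around Pax5 0.17 (2 higher, 3 lower) and around Jchain -0.27 (1 higher, 3 lower). In 2225L minus 2151R, 22.8% of all genes were called higher and 25.8% lower. There 15 of the 20 neighbours of Cd79a were called higher and 2 lower (median 1.45). Of those of Fcrla 12 were higher and 4 lower (median 2.01). Around Cd79b 2 were higher and 4 lower (median -0.27), around Pax5 7 and 1 (0.62), around Jchain 2 and 7 (-0.34) and around Pou2af1 5 and 5 (0.27). In 2151R minus 2208L, 0 neighbours of Cd79a were called higher and 11 lower (median -0.64). Around Fcrla 2 were higher and 6 lower there (median -0.37), where 26.1% of all genes were higher and 22.7% lower. By Pearson r the genes most like Cd79a were Nalcn (0.89), Izumo1r (0.85) and Dok7 (0.85), and those most like Cd79b were Skiv2l (0.90), Pyurf (0.90) and Mlst8 (0.90). Within groups these fell to 0.42, 0.21 and 0.21 for Cd79a, and to 0.62, 0.55 and 0.66 for Cd79b.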

How the data were processed

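Bulk poly(A) RNA of 15 tumours was sequenced and the authors deposited 1 table of centred log2 values for 17271 genes. Per the submitters' processing notes the build was mm10 and the tools STAR and Salmon; their versions, roles, the log offset and the centring reference are not given in the sources used here. The table holds no counts, so depth is unknown and no counting interval could be given. Of its genes, 727 held a value shared exactly by samples, and 93.7% had a place in RefSeq.

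Groups came from the sample labels. Differences were fitted with limma 3.58.1 (R 4.3.3, eBayes without trend) on the log2 values as deposited, with all 15 samples for the models and the 7 PBS and 3day nt samples for the subsets. P-values were adjusted by Benjamini-Hochberg over all genes. The script was tested on simulated data. The 6 members present, the 16 further gene lists and the named genes (all members; in each other list the 2 called genes of largest difference per comparison, lists with 5 or fewer calls in full, and set defining genes) were chosen with earlier results of these data known. Alternatives were other scalings, filters, sample weights, covariates, subsets and leaving out samples. Likeness is a Pearson r over samples, and motifs were exact matches in promoter windows. Results for some genes of the lists are not reported here.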

Additional observations from a re-analysis of the deposited data

Results flagged for a closer look

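Among 63 groups of values in 4 or 8 samples, 4 held a sample far from the others, where chance gives about 1 in 20. The groups were 2151R, 2208L and its PBS samples, so those of PBS and 2208L are not independent. In 2208L the ROSEN sample (replicate 1) read -2.22 for Pax5, with the other 7 samples between -0.68 and 0.35. The same sample read -4.60 for Pou2af1, with the others between -2.68 and -1.63. The mean of the plasma cell list in 2208L replicate 5, a PBS sample, was -0.32, with the others between 0.11 and 0.38. The mean of the skeletal muscle list in 2151R replicate 3 was 6.69, with the others between -3.37 and -2.98.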

How the results depend on the processing

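No paired analysis was possible because the labels carry no shared replicate number, and the numbers used here only name samples. Over the alternatives, the 11 member results that were called kept their call in 188 of 222 fits and lost it in 34, and the 13 not called passed in 18 of 290; no called member changed sign. Pou2af1 was called in every fit run of 2225L against 2208L and against 2151R. Between 2151R and 2208L the count of members called went from 1 to 3 with quantile normalization, with sample weights or without the 3 samples high in muscle genes, and to 2 with genes of low SD left out, with the library prefix as a covariate or with only the models compared; leaving out single samples gave 1 to 3. Between 2225L and 2208L it went from 3 to 1 with sample weights, and single samples gave 2 to 3. Between 2225L and 2151R it went from 5 to 3 with quantile normalization, with only the models compared or with CP samples only (chosen after seeing the data), to 1 with sample weights, and single samples gave 2 to 5. Between PBS and 3day nt it went from 2 to 1 with quantile normalization and to 0 without the muscle-high samples, and single samples gave 1 to 2; that limma count of 0 has 1 sample in 3day nt, whose spread was taken as that of PBS, and 2 members, Fcrla and Jchain, had an unadjusted p under 0.05. Ccr7, at 0.072 in 2151R minus 2208L, was -1.52 against the 3day nt samples alone. The causes were not tested.

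Counts over all genes moved as follows. A minimum difference of 1 log2 unit, which is stricter by construction, left 5151 of 8434 genes between 2151R and 2208L and 2208 of 5864 between PBS and 3day nt. Sample weights gave 2158 against 5687 for 2225L and 2208L, 5252 against 8398 for 2225L and 2151R, and 11692 against 5864 for PBS and 3day nt, where fitting the weights did not converge. Without the muscle-high samples 98 genes were called between PBS and 3day nt, and single samples gave 2379 (without replicate 8) to 6800. Depth is unknown, so what it limits cannot be given.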
